A study of Mus musculus with 4 samples.

Results

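The genes described are 3 ligands of bone morphogenetic protein (BMP) signalling, *Bmp2*, *Bmp4* and *Bmp7*, 3 of its receptors, *Bmpr1a*, *Bmpr1b* and *Bmpr2*, and 4 genes that the pathway is known to switch on, *Id1*, *Id2*, *Id3* and *Smad6*. They were chosen by name, and all 10 were among the 14924 genes of the RNA-seq data. RNA was taken from whole mouse lenses, which hold a single-layered epithelium over a mass of elongated fiber cells. The study compared lenses lacking S100A4, a small calcium-binding protein, with wild type (WT) lenses, and there were 2 libraries of each genotype. The S100A4 null (S100A4-/-) mice were kept on a C57BL/6J background, the WT mice were their littermates, and all were 1 month old. Each library came from 6 to 12 pooled lenses, and mice of both sexes were used in the study, with the sex of each pool not given in the sources used here. No other allele, transgene or treatment was stated for either group.

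BMPs are secreted dimers that bring type I and type II receptor kinases together on the cell surface. The activated type I receptor phosphorylates Smad1, Smad5 and Smad9, which enter the nucleus with Smad4 and turn on target genes, among them the Id genes. *Bmp4* and *Bmp7* are known for their part in the induction of the lens from surface ectoderm, and BMP receptors are needed for the lens vesicle to form normally and for fiber cells to elongate.

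A value below is the number of reads counted on a gene divided by 1 size factor per library. A read was worth 0.856 and 1.01 in the S100A4-/- libraries, which held 81602367 and 74108017 reads in all, and 1.04 and 1.09 in the WT libraries, which held 70253985 and 68038158. The knocked-out gene itself, *S100a4*, stood at 14420 and 14385 in WT and at 14.6 and 18.2 in S100A4-/-. The libraries thus fit their labels at the gene that was deleted. Of 9 lens fiber markers, all 9 were present in every library and took 32.1% and 31.8% of the S100A4-/- values and 32.8% and 32.3% of the WT values. Genotypes were compared with limma on log2(value + 1), with Benjamini-Hochberg adjustment over the 14780 genes tested, and a gene was called at a change of at least 2-fold and an adjusted p of at most 0.05.

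Of the 10 BMP genes, the ligands *Bmp2* and *Bmp4* were higher in S100A4-/- lenses past this threshold, by 4.27-fold and 5.46-fold in mean value. The third ligand, *Bmp7*, rose by 1.23-fold, which passes the test but not the fold. None of the 3 receptors and none of the 4 target genes passed the test in either direction. Of these 7, 0 had an unadjusted p under 0.05 by limma, beside 11% of all tested genes higher and 6.71% lower. None of the 7 passed in DESeq2 or edgeR either, where DESeq2 passed 571 genes higher and 90 lower at any fold. The count of 2 of 10 higher stands beside 3.65% of all tested genes called higher and 0.0744% called lower, and the count of 3 of 10 at any fold beside 5.62% higher and 1.33% lower. The median log2 fold change of the 10 genes was 0.04, against -0.005 over all genes tested. Without *Bmpr1b*, which reached the minimum value of 10 only through the S100A4-/- libraries, the member median was 0.02. All 10 rod marker genes, and 8 of 9 tested markers of ciliary and pigmented epithelium (7 of 8 without *Mlana*), were also called higher in S100A4-/-. *Mlana*, like *Bmpr1b*, reached the minimum value only through S100A4-/-. The summed values of the rod and of the ciliary and pigmented lists were 4.25 and 3.58 times those of WT. Those of the macrophage and red cell marker lists were 2.98 and 2.10 times those of WT. In bulk RNA, more cells of a type and more RNA per cell cannot be told apart.

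**Figure D1:**
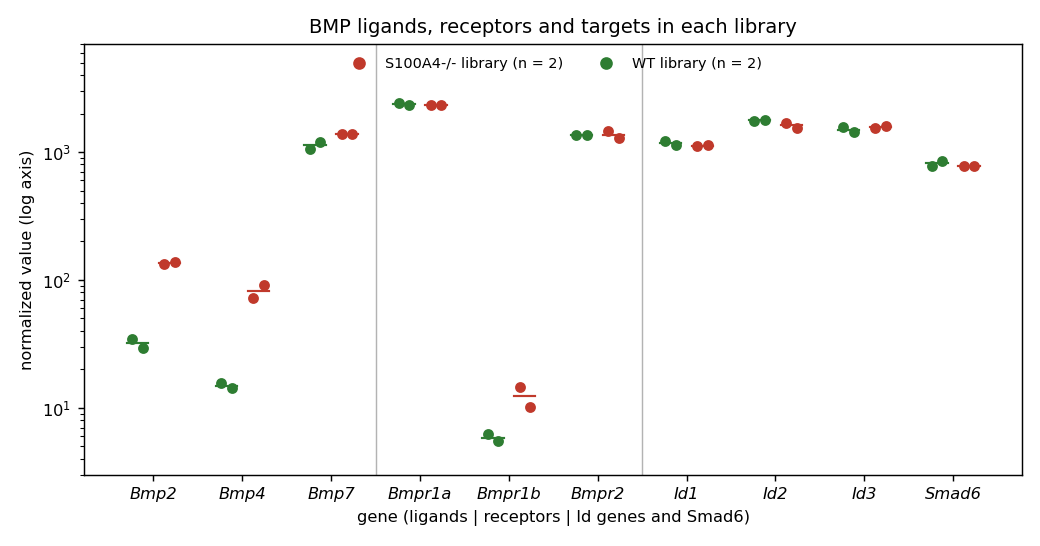
Normalized value (log axis) of each of the 10 BMP genes in the 2 WT and 2 S100A4-/- libraries, with ligands, receptors, and Id genes with *Smad6* separated by grey lines. Points are libraries and short bars are group means. *Bmp2* and *Bmp4* are the pair whose groups lie far apart, while the groups of *Bmpr1a*, *Bmpr2*, *Id3* and *Smad6* overlap.

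*Bmp2* encodes a ligand best known for bone formation and for the growth of the heart cushions. The gene (ENSMUSG00000027358) lies on the plus strand of the mouse genome build GRCm38 at chr2:133552159-133562885. Its values were 134 and 139 in S100A4-/- and 34.5 and 29.6 in WT, from 157 and 137 against 33 and 27 reads. Both S100A4-/- libraries were far above both WT libraries, and the libraries of a genotype lay close together, with means of 137 ± 3.11 and 32.01 ± 3.46 (SD, n = 2 each). The log2 fold change was 2.06 with a standard error of 0.25 (limma adjusted p = 5.68e-08), and its 95% interval ran from 1.56 to 2.57, which is 2.95-fold to 5.92-fold. In all 15 alternative analyses *Bmp2* stayed higher and past the test, with log2 fold changes from 1.86 to 2.17 and a largest adjusted p of 0.0301.

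*Bmp4* encodes the ligand closest to BMP2 in sequence, and it is needed in the optic vesicle for the lens to be induced. The gene (ENSMUSG00000021835) is on the minus strand at chr14:46383520-46390669. Its values were 71.9 and 91.2 in S100A4-/- and 15.7 and 14.2 in WT, from 84 and 90 against 15 and 13 reads. The groups did not overlap, although the S100A4-/- libraries differed more from each other (81.6 ± 13.6, SD, n = 2) than the WT libraries did (14.9 ± 1.01, SD, n = 2). The log2 fold change was 2.36 with a standard error of 0.34 (limma adjusted p = 2.59e-06), with a 95% interval from 1.67 to 3.05, or 3.19-fold to 8.31-fold. Over the 14 alternatives that kept the gene it ranged from 2.11 to 2.53 and passed in each, with a largest adjusted p of 0.0492. Of 2248 exonic bases of *Bmp4*, 89 lie opposite exons of the antisense gene *Gm15217*. The strand setting of the read counting is not given in the sources used here, so reads on those bases cannot be told apart.

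The sequence just before the start of *Bmp4*, the member with the largest change, is printed beside that of *Smad6*, a target gene that did not pass the test. Both are 250 bases long, from RefSeq on GRCm38.p6, on the minus strand, and written 5′ to 3′. They are the windows that lie wholly outside the annotated gene among 9 matched windows of 7 members. Capitals mark GGAGCC or its reverse complement GGCTCC, letters of a known motif of BMP-activated Smads.
Bmp4 chr14:46390670-46390919: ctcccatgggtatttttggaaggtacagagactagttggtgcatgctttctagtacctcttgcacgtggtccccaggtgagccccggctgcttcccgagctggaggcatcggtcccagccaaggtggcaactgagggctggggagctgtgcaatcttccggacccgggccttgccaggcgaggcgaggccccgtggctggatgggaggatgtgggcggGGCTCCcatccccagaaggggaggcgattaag
Smad6 chr9:64022060-64022309: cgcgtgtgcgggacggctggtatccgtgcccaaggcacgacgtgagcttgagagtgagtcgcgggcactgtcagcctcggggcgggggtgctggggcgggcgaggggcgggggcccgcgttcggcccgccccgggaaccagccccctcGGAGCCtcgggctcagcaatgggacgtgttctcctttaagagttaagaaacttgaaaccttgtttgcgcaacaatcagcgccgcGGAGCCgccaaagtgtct
The *Bmp4* window held 1 match and the *Smad6* window 2. That motif was found on either strand in 26.0% of 32851 promoter windows of the same length. A second Smad motif, GGCGCC, which reads the same on both strands, was in 9.59% of all windows, and the palindrome GTCTAGAC in 0.167%. Neither was in the 2 printed windows, and none of the 3 motifs contains another. Over the 9 windows of the members, 6 held the first motif, 3 the second and 0 the third, and 8 held any of them, against 31.9% of all windows. The 9 are not all separate, since several belong to *Bmpr1b* and its windows at chr3:141931589-141931838 and chr3:141931421-141931670 overlap. No test was made of these counts. The windows of *Bmp4* and *Smad6* were also rich in G and C, at 63.2% and 66.8%, against a median of 52.4% over all windows. Over the 9 member windows this share ran from 46.8% (*Bmpr1b*) to 78.8% (*Bmpr1a*), and the first 2 motifs consist mostly of G and C. The counts of matches were not corrected for it. A match is a description of the letters and no record of binding.

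*Bmp7* encodes a ligand that is needed for lens induction and for kidney development. The gene (ENSMUSG00000008999) is on the minus strand at chr2:172868012-172940321. Its values were 1386 and 1396 in S100A4-/- and 1066 and 1189 in WT. The S100A4-/- libraries were nearly equal (1391 ± 6.46, SD, n = 2) and both lay above the WT libraries (1128 ± 87.0, SD, n = 2), which differed more from each other than the S100A4-/- libraries did. The log2 fold change was 0.30 with a standard error of 0.07 (limma adjusted p = 0.00322), and its 95% interval from 0.16 to 0.45, or 1.12-fold to 1.36-fold, lies below the intervals of *Bmp2* and *Bmp4*. It did not pass in every analysis: the adjusted p was 0.149 without S100A4-/- replicate 1, 0.145 without S100A4-/- replicate 2, 0.146 without WT replicate 1 and 0.304 without the variance trend.

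Per length of exon, which allows levels to be compared between genes, *Bmp7* was the most abundant of the 3 ligands in every library. The values of the 3 ligands per kb of exon summed to 282 and 311 in WT and to 415 and 427 in S100A4-/-. *Bmp7* made up 94.1% and 95.3% of this sum in WT and 83.2% and 81.3% in S100A4-/-. *Bmp2* went from 3.44% and 2.68% to 9.12% and 9.15%, and *Bmp4* from 2.47% and 2.04% to 7.71% and 9.51%. The ligand RNA was thus still mostly *Bmp7* in the S100A4-/- lenses, with a larger share of *Bmp2* and *Bmp4*. These shares are descriptions, with no test of their own.

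**Figure D2:**
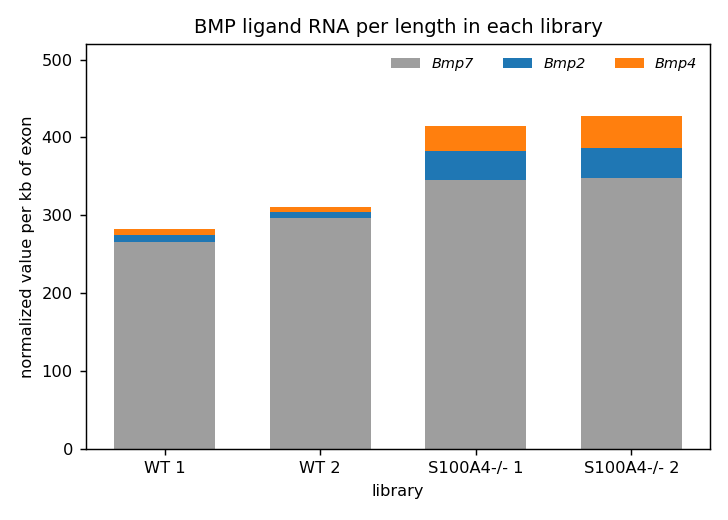
Stacked bars of normalized value per kb of exon for *Bmp7* (grey), *Bmp2* (blue) and *Bmp4* (orange) in each library. The bars reach 282 and 311 in WT and 415 and 427 in S100A4-/-, and the blue and orange parts are larger in S100A4-/-.

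None of the receptors passed the test. *Bmpr1a*, the type I receptor also called ALK3 (ENSMUSG00000021796, minus strand, chr14:34410734-34503341), had values of 2348 and 2340 in S100A4-/- and 2440 and 2318 in WT. The S100A4-/- values lay between the WT values. The log2 fold change was -0.02 with a standard error of 0.06 (limma adjusted p = 0.904) and a 95% interval of 0.909-fold to 1.07-fold. Of its 6351 exonic bases, 290 lie opposite the antisense gene *Gm17110*.

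*Bmpr2*, the type II receptor (ENSMUSG00000067336, plus strand, chr1:59763400-59879014), had values of 1456 and 1285 in S100A4-/- and 1349 and 1355 in WT. Here the WT values lay between the S100A4-/- values, and the WT libraries were almost equal. Its log2 fold change was 0.02 with a standard error of 0.07 (limma adjusted p = 0.940), with an interval of 0.917-fold to 1.12-fold.

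*Bmpr1b*, the type I receptor also called ALK6 (ENSMUSG00000052430, minus strand, chr3:141837136-142169425), was near the limit of detection. It had values of 14.6 and 10.1 in S100A4-/- and 6.26 and 5.47 in WT, from 17 and 10 against 6 and 5 reads. Both S100A4-/- values were above both WT values, but at this depth the log2 fold change of 0.94 had a standard error of 0.68 and an interval from 0.736-fold to 5.002-fold (limma adjusted p = 0.518). The gene reached the minimum value of 10 only through the S100A4-/- libraries, and it is the one member for which this holds.

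The Id genes encode helix-loop-helix proteins that bind bHLH transcription factors and keep them from DNA, and they are widely read as targets of BMP signalling. *Id1* (ENSMUSG00000042745, plus strand, chr2:152736251-152737410) had values of 1122 and 1128 in S100A4-/- and 1210 and 1140 in WT. Both S100A4-/- values were slightly below both WT values, and the log2 fold change was -0.06 with a standard error of 0.07 (limma adjusted p = 0.724).

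*Id2* (ENSMUSG00000020644, minus strand, chr12:25093799-25097140) had values of 1690 and 1547 in S100A4-/- and 1750 and 1789 in WT. It was the other target whose S100A4-/- values both lay below the WT values. Its log2 fold change of -0.13, with a standard error of 0.06, was the most negative of the 10 genes and missed the threshold (limma adjusted p = 0.284).

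*Id3* (ENSMUSG00000007872, plus strand, chr4:136143497-136145755) had values of 1535 and 1611 in S100A4-/- and 1575 and 1424 in WT. The groups overlapped, and the log2 fold change was 0.07 with a standard error of 0.07 (limma adjusted p = 0.647). *Smad6*, an inhibitory Smad that the pathway induces and that acts back on it (ENSMUSG00000036867, minus strand, chr9:63953076-64022059), had values of 784 and 774 in S100A4-/- and 782 and 858 in WT. The groups overlapped here too, and the log2 fold change was -0.07 with a standard error of 0.08 (limma adjusted p = 0.719).

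The 95% intervals, taken gene by gene and resting on the spread shared across genes, give a range for the change in whole-lens RNA. They are no firm bound on what these libraries could have missed. For *Id1* the interval ran from 0.867-fold to 1.06-fold, for *Id2* from 0.835-fold to 1.00-fold, for *Id3* from 0.956-fold to 1.15-fold and for *Smad6* from 0.849-fold to 1.07-fold. Each of the 4 target genes thus has an interval that holds no rise above 1.154-fold, while the intervals of *Bmp2* and *Bmp4* begin at 2.95-fold and 3.19-fold. Of the 10 members, 4 had both S100A4-/- values above both WT values, as 23.7% of all tested genes did. These were the 3 ligands and *Bmpr1b*. Another 2, *Id1* and *Id2*, had both below, as 23.2% of all genes did.

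**Figure D3:**
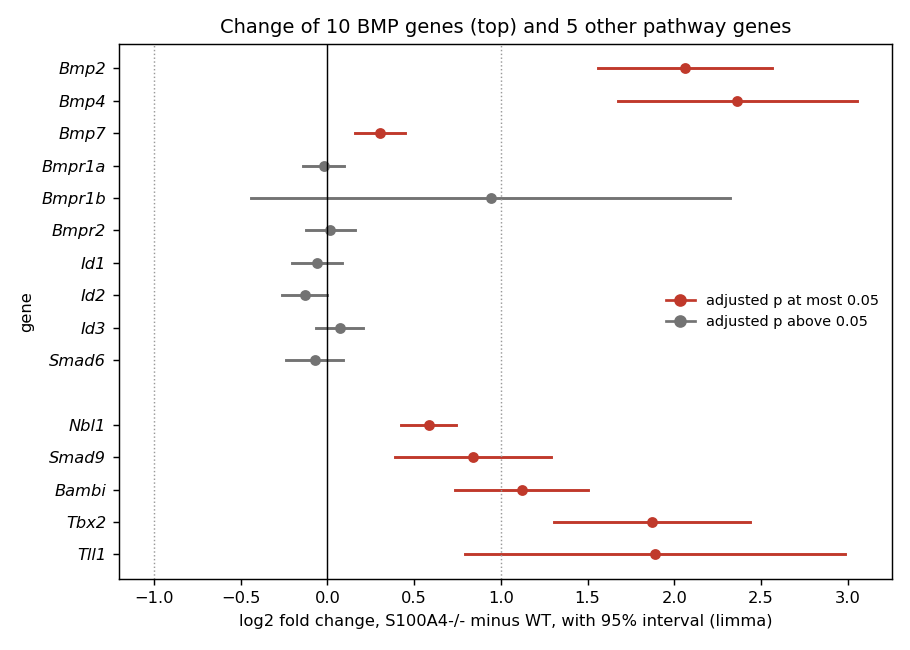
Log2 fold change of S100A4-/- against WT with its 95% interval (limma, 2 libraries a group) for the 10 BMP genes (top) and for the 5 other pathway genes that passed the test (bottom). Red marks an adjusted p of at most 0.05 and dotted lines mark 2-fold. *Bmp2* and *Bmp4* sit at 2.06 and 2.36, *Bmp7* at 0.30, and the target genes, *Bmpr1a* and *Bmpr2* run from -0.13 to 0.07.

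In order of level per kb of exon in WT, *Id1* came first with 1013, followed by *Id3* with 837 and *Id2* with 726. *Bmpr1a* followed with 375, then *Bmp7* with 281, *Smad6* with 256 and *Bmpr2* with 75.2. *Bmp2* with 9.004, *Bmp4* with 6.65 and *Bmpr1b* with 0.985 were lowest. Target genes and the common receptors were thus far above *Bmp2* and *Bmp4* in RNA per length. The libraries of neighbours in this order did not overlap, apart from those of *Bmp7* and *Smad6*. In S100A4-/- the order of the names was the same, with *Bmp2* at 38.4 and *Bmp4* at 36.3, whose libraries there overlapped. Even so raised, both were below *Bmpr2* at 76.2 per kb.

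**Figure D4:**
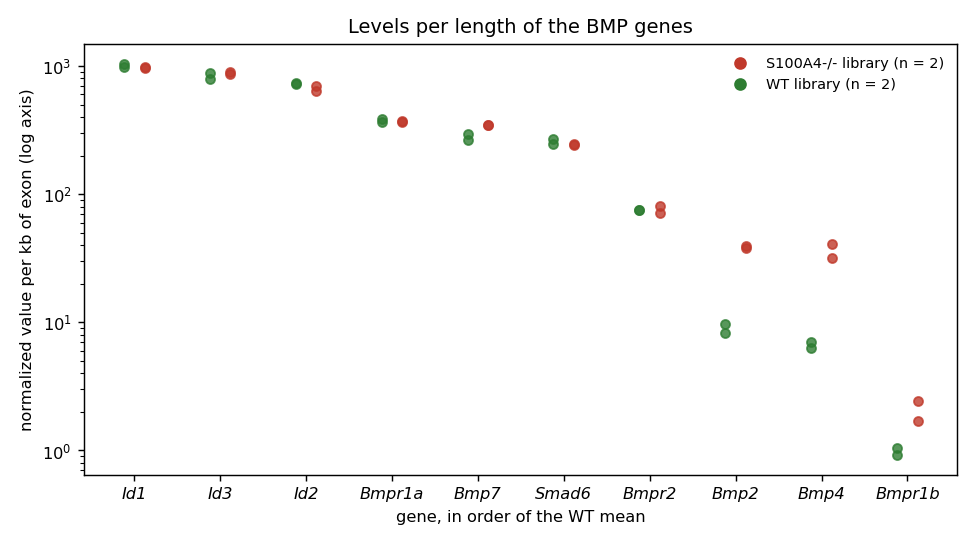
Normalized value per kb of exon (log axis) of the 10 BMP genes in each of the 2 WT and 2 S100A4-/- libraries, in order of the WT mean. *Id1* is highest at 1013 and *Bmpr1b* lowest at 0.985 in WT, and *Bmp2* and *Bmp4* are the genes whose red points stand farthest above the green ones.

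By distance between profiles of log2(value + 1) over the 4 libraries, each centred on its mean, the genes closest to *Bmp2* were *Minar2* at a distance of 0.0598 and *Neurod1*, a bHLH factor of neurons and photoreceptors, at 0.149. *Minar2* had values of 132 and 142 in S100A4-/- and 34.5 and 30.7 in WT, and *Neurod1* had 93.3 and 109 against 25.1 and 23.0. The genes closest to *Bmp4* were *Six6*, a homeobox factor of the retina, at 0.121, *Pmel*, a melanosome protein, at 0.178, and *Cplx4*, a complexin of retinal synapses, at 0.222. *Six6* had 83.9 and 95.3 in S100A4-/- against 16.7 and 15.3 in WT. The genes closest to *Bmp7* were *Shroom2*, *Pcbp3* and *Mef2d*, at distances of 0.00278, 0.0236 and 0.0237, with limma adjusted p-values of their own of 0.180, 0.0764 and 0.0118. A likeness over 4 libraries mostly records the size of the change between genotypes.

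The rest of the pathway was described from 73 other genes, of which 50 were tested and 23 were not analysed here. Of the 50, 3 were called higher at 2-fold or more, 5 were higher at any fold and 0 were lower by limma. At an unadjusted p under 0.05, 10 were higher and 3 lower, as were 11% and 6.71% of all genes tested. At any fold DESeq2 passed 3 of them higher and 0 lower, beside 571 and 90 over all genes, and edgeR passed 5 and 0. No edgeR count over all genes is given here, so the edgeR counts have no share to stand beside. Their median log2 fold change was 0.06. The share called, 3 of 50, stands beside the same 3.65% of all genes, and 5 of 50 at any fold beside 5.62%. Of the 50, 5 reached the minimum value only through the S100A4-/- libraries, 1 of the 3 called genes (*Tll1*) among them. Over the other 45, 2 were called at 2-fold and the median was 0.04, and neither median is one of the whole pathway.

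Among other ligands, none of 3 tested passed, and 1 had an unadjusted p under 0.05. *Gdf10*, the most abundant of them, had 154 and 142 in S100A4-/- and 108 and 118 in WT (limma adjusted p = 0.234). None of 8 other receptors and co-receptors passed by limma either, with 1 at an unadjusted p under 0.05. This was *Eng*, endoglin, a co-receptor best known in endothelium, with 48.8 and 35.5 in S100A4-/- and 18.8 and 19.7 in WT, a log2 fold change of 1.07 (limma adjusted p = 0.0877). The most abundant was *Neo1*, a receptor that also binds the RGM co-receptors. *Neo1* had 2916 and 3112 against 3210 and 3265 (limma adjusted p = 0.327).

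Of the 4 Smads that carry the signal, *Smad1* was the most abundant, with 2240 and 2198 in S100A4-/- and 2444 and 2434 in WT (limma adjusted p = 0.181). *Smad9* was the one that passed, with 132 and 105 in S100A4-/- above 57.4 and 74.5 in WT, a log2 fold change of 0.84 (limma adjusted p = 0.0113). *Smad9* missed the threshold without S100A4-/- replicate 1 (adjusted p = 0.369), without S100A4-/- replicate 2 (0.148) and without WT replicate 1 (0.0983), and also in DESeq2 (0.111), with quantile normalization (0.0785) and without the variance trend (0.235).

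Of 8 intracellular inhibitors and decoy receptors tested, *Bambi* alone passed. It encodes a receptor-like protein without a kinase that dampens BMP and TGF-β signalling, and its own transcription is known to respond to BMP. Its values were 178 and 165 in S100A4-/- and 72.0 and 85.4 in WT, a log2 fold change of 1.12 (limma adjusted p = 4.41e-05). It missed the threshold without S100A4-/- replicate 1 (adjusted p = 0.0955) and without S100A4-/- replicate 2 (0.0543), without the variance trend (0.0714), in the treat test (an adjusted p of 1) and, by fold, with quantile normalization (a log2 fold change of 0.99). *Tob1*, the most abundant of this list, had 3435 and 3038 against 3451 and 3208, and the groups overlapped (limma adjusted p = 0.778).

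Of 13 secreted or membrane-bound antagonists, *Nbl1*, which encodes a secreted BMP antagonist, was the one that passed. It had 1319 and 1265 in S100A4-/- and 793 and 936 in WT, a log2 fold change of 0.58 (limma adjusted p = 5.39e-07), which missed the threshold without the variance trend (adjusted p = 0.184). *Crim1*, a membrane protein that binds BMPs and is strongly expressed in the lens, was the most abundant, with 37602 and 35617 against 39145 and 38527 (limma adjusted p = 0.261). *Nog*, which encodes the antagonist noggin, had 2.57 and 10.1 in S100A4-/- and 3.13 and 0 in WT, and its 0 allows up to 3 reads.

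Among 5 proteases that free or mature BMPs, *Tll1*, a relative of BMP1 that cleaves chordin, was called higher. It had 23.1 and 33.4 in S100A4-/- against 8.35 and 5.47 in WT, so it reached the minimum value only through the S100A4-/- libraries, with a log2 fold change of 1.89 (limma adjusted p = 0.0232). It missed the threshold without S100A4-/- replicate 1 (adjusted p = 0.170), without S100A4-/- replicate 2 (0.305) and without WT replicate 2 (0.0694), and also in DESeq2 (0.109), with quantile normalization (0.117), without the variance trend (0.129) and in the treat test (an adjusted p of 1). *Furin*, the most abundant, had 2864 and 2803 against 2638 and 2831, with overlapping groups.

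Of 9 other target genes, *Tbx2*, a T-box factor that BMPs are known to induce in the optic cup, was the one that passed. It had 104 and 99.3 in S100A4-/- and 24.02 and 30.7 in WT, a log2 fold change of 1.87 (limma adjusted p = 5.05e-06), and it missed the threshold without S100A4-/- replicate 1 (adjusted p = 0.0579) and in limma's treat test against a 2-fold change (0.127). *Hey1*, the most abundant of these, had 1022 and 950 against 978 and 1020, with overlapping groups. *Id4*, the remaining Id gene, had 338 and 316 against 339 and 287, and its log2 fold change of 0.07 was close to that of *Id3* (limma adjusted p = 0.837).

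Marker genes of other eye cells differed between the same libraries. All 10 rod photoreceptor markers were called higher in S100A4-/-, and their values summed to 8830 and 8564 against 1999 and 2091 in WT, a ratio of 4.25. *Gnat1*, rod transducin, was the most abundant with 3339 and 3327 against 736 and 782, and *Rp1* changed most, with a log2 fold change of 2.50. Of 9 tested markers of ciliary and pigmented epithelium, 8 were called higher, 1 of which (*Mlana*) reached the minimum value only through S100A4-/-, and the list summed to 6014 and 5993 against 1529 and 1826. *Optc*, opticin, was the most abundant of these with 3609 and 3502 against 693 and 888, and *Dct* changed most, with 581 and 582 against 31.3 and 44.9. *Oca2* did not pass, with 495 and 507 against 507 and 494. The log2 fold changes of *Bmp2* and *Bmp4*, 2.06 and 2.36, stand beside list medians of 2.09 and 2.18 (2.17 without *Mlana*), and none of these markers was listed at 0 in a WT library. The rod list holds genes already reported as higher in these libraries, so its median is a description and no independent yardstick.

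Of 6 macrophage markers tested, 2 reached the minimum value only through S100A4-/- and were not called, and the other 4 were called higher by limma, 1 of them also in DESeq2, and the list summed to 272 and 238 against 98.2 and 73.4. *Csf1r* was the most abundant with 93.3 and 69.9 against 33.4 and 35.04. *C1qb* changed most, with 41.1 and 59.8 against 19.8 and 2.19, a log2 fold change of 2.63. The WT values of *C1qb* lay far apart, so the size of its change depends on which WT library is used. Of 7 markers of Müller glia, 3 were higher, led by *Glul* with a log2 fold change of 1.55. The other 4 did not pass. Of these *Clu*, the most abundant and also a lens gene, had -0.04, *Vim* -0.10, *Gfap* -0.08 and *Aqp4* 0.09. The Müller glia list summed to 182964 and 199730 in S100A4-/- against 194641 and 197578 in WT. Of 7 endothelial markers tested, 1 was called higher, *Kdr*, with 74.5 and 60.8 against 9.40 and 9.85, which reached the minimum value only through S100A4-/-, while *Egfl7*, the most abundant, had 323 and 316 against 271 and 331. The endothelial list summed to 540 and 536 against 384 and 472.

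Of 4 mesenchymal markers tested, *Col1a2*, the most abundant, was higher by 0.34 on the log2 scale, and *Dcn* had the largest value, 1.36, without passing. Of 4 red cell markers, *Hbb-bs*, the most abundant, was called higher and *Alas2* had the largest value, 1.69, without passing. Both *Dcn* and *Alas2* reached the minimum value only through S100A4-/-. Of 9 fiber markers none passed by limma, and 1 had an unadjusted p under 0.05. By edgeR 2 passed as lower, with no edgeR count over all genes beside them, and by DESeq2 1 did. *Cryaa* was the most abundant at -0.07 and *Mip* had the largest change at -0.12. Of 5 epithelial markers, *Cdh2*, the most abundant, fell by 0.16 on the log2 scale (limma adjusted p = 0.0332) but passed in neither DESeq2 nor edgeR, and *Cdh1*, at the largest value of -0.16, did not pass. The list went both ways, since *Gja1* had 0.15 (limma adjusted p = 0.0688) and *Pax6* 0.07 (limma adjusted p = 0.536), both with S100A4-/- values above WT and neither passing.

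The part of these other cells in the higher *Bmp2*, *Bmp4* and *Bmp7*, and in the higher *Smad9*, *Bambi*, *Nbl1*, *Tll1* and *Tbx2*, was not tested.

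**Figure D5:**
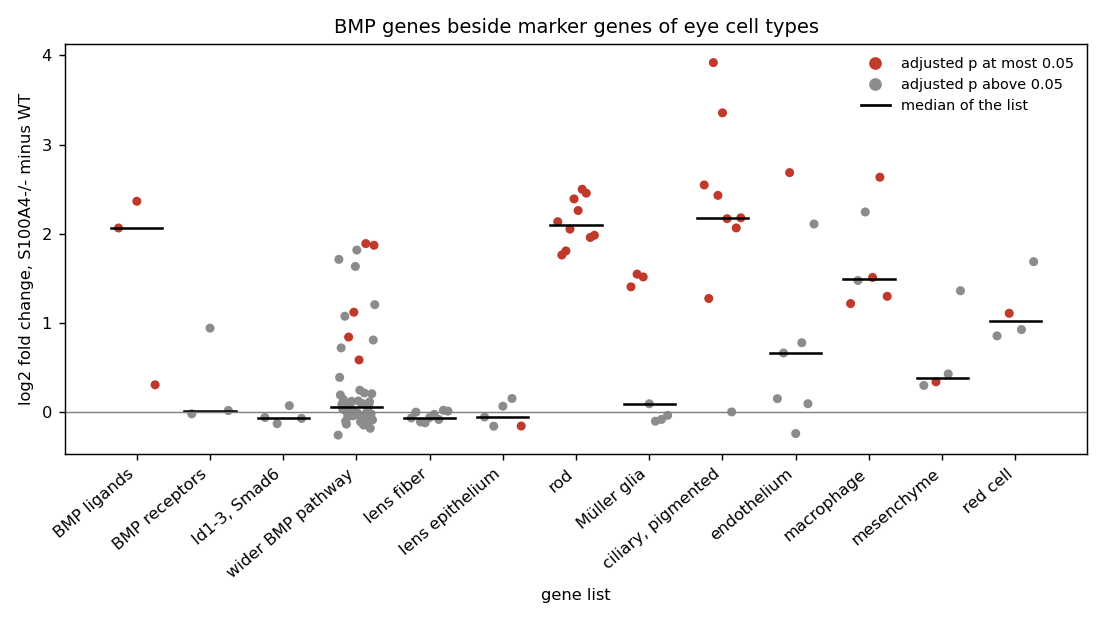
Log2 fold change of each tested gene, S100A4-/- against WT, by list, with red for an adjusted p of at most 0.05 and a black bar for the median of the list. The rod and the ciliary and pigmented lists have medians of 2.09 and 2.18, near the values of *Bmp2* and *Bmp4*, while *Bmpr1a*, *Bmpr2*, the Id genes and *Smad6* run from -0.13 to 0.07 and *Bmpr1b* stands at 0.94 without passing.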

How the data were processed

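Polyadenylated RNA of 4 lens pools, 2 S100A4-/- and 2 WT, was sequenced as stranded, single-end libraries on 1 lane. Per the paper's methods and the submitters' processing notes, Trim Galore removed adapters, STAR aligned the reads to the GRCm38v73 release of the mouse genome (mm10), and the authors counted them per gene with HTSeq and normalised with DESeq2. Versions of these tools are not given in the sources used here. The deposited signal values are these counts divided by a size factor (1.168 and 0.987 for S100A4-/-, 0.958 and 0.913 for WT), not by length. In each library, 100% of values under 2000 reads lay within 0.1 reads of a whole number, so reads were recovered. There were 0 columns without a sample. A count of 0 allows up to 3 reads, for counting error only.

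All genes that reached 10 in any of the libraries (14780, leaving out 144) were tested with limma 3.58.1 (lmFit and eBayes with trend) on log2(value + 1), a scale that understates the change of low genes. Genotype was the only term, all 4 libraries entered the fit, and p-values were adjusted by Benjamini-Hochberg. The study's own test was DESeq2 with the same thresholds. Here DESeq2 1.42.0 and edgeR 4.0.16 on recovered reads were alternatives, as were pseudocounts of 0.5 and 5, no filter, a mean of at least 50, TMM, equal totals, quantile normalization, no variance trend, a replicate block, the treat test and each library left out in turn. R 4.3.3, Python 3.11.15, pandas 2.3.3, numpy 2.4.6 and matplotlib 3.10.9 were used. On simulated data of this comparison, limma passed 198 of 200 changed genes and 13 of the unchanged genes among 14345 genes, at any fold. The changed genes all had a mean of at least 50 reads and changed by more than 2-fold. Lower genes and smaller changes were thus not covered.

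The members and lists were chosen with earlier results of these data known. Named are all 10 members, *S100a4*, every gene of the wider lists with an adjusted p of at most 0.05, the most abundant gene of each list, of each marker list also the gene with the largest change, and the 3 genes most like each ligand with an adjusted p of at most 0.05. A gene named by the last of these is not reported here. *Nog*, *Id4*, *Eng*, *Gja1*, *Pax6*, *Mlana*, *Oca2*, *Vim*, *Gfap* and *Aqp4* were named after their values were seen. Coordinates and exonic lengths came from GENCODE M21. RefSeq promoters matched 7 of the 10 members, and protein sequences were not used here.

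The labels say the libraries are separate samples. In chi-square tests of reads, the median over genes was 2.03 for the S100A4-/- pair and 1.09 for the WT pair, against 0.455 for sampling noise. The libraries of a pair thus differed by more than sampling noise. These medians cannot tell 2 pools from 2 libraries of 1 pool. The samples of a group are pools, so p-values measure the spread between pools. The labels give both genotypes the replicate numbers 1 and 2, without stating a shared litter or day.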

Additional observations from a re-analysis of the deposited data

How the results depend on the processing

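With 2 libraries a group, p-values rest on the spread shared across genes, and depth limits *Bmpr1b*, at 5 to 17 reads, most of the members. *Bmp2* and *Bmp4* kept their direction and passed under each alternative that tested them, treat against a 2-fold change included, and *Id1*, *Id2*, *Smad6* and *Bmpr1b* kept theirs without passing. The sign of 3 members near zero turned. *Bmpr1a* was 0.0082 with equal totals and 0.0089 with quantile normalization, and with each library left out it ran from -0.058 to 0.016 (without WT replicate 1), *Bmpr2* from -0.073 (without S100A4-/- replicate 1) to 0.11, and *Id3* from -0.0015 (without WT replicate 2) to 0.14. With a mean of at least 50, *Bmp4* and *Bmpr1b* were not tested, 1 member was called at 2-fold, the member median was -0.0022, and over all genes 281 were called higher and 6 lower (549 higher at any fold). Equal totals left 783 genes higher and 55 lower at any fold, against 831 and 197. Quantile normalization called 377 genes higher and 23 lower at 2-fold over all genes, and 1 wider pathway gene higher at 2-fold and 3 at any fold. Without the variance trend, 174 genes were called higher and 7 lower (179 and 8 at any fold), with 1 wider pathway gene at either threshold. DESeq2 called 6 genes lower and 90 lower at any fold, with 3 wider pathway genes at any fold. Treat called 168 higher and 3 lower. Leaving out each library in turn, with the lone library assumed to vary like the other group, gave 168 to 546 genes higher and 4 to 13 lower at 2-fold, 218 to 803 and 31 to 111 at any fold, 0 to 4 and 1 to 5 wider pathway genes, and 2 and 2 to 3 members, with member medians from 0.01 to 0.08. The lowest counts came without S100A4-/- replicate 1. Libraries of one replicate number did not deviate together (r = 0.012 over 14780 genes), and the replicate block left the member counts at 2 and 3 and gave 348 genes lower at any fold. The causes of these shifts were not tested.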
